A study of Mus musculus with 16 samples.

Results

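The data on 10 genes of mouse chromosome 3 come from 16 skeletal muscle libraries: *Efna1*, *S100a11*, *C920021L13Rik*, *Sv2a*, *Phtf1*, *Capza1*, *St7l*, *A930005H10Rik*, *Alpk1* and *Fam241a*. They lie between 86 and 130 Mb on the same chromosome as *Npr1*, the gene targeted in the mice, and are 10 of the 55471 genes counted and of the 14331 genes with enough reads to be tested. They were chosen by their measured levels in these libraries, because these differed between the genotype labels or parted most libraries by label. The label differences below are therefore given as descriptions, without a test. All 10 passed the filter on low counts, which kept genes with enough reads in as many libraries as the smaller label holds. *Sv2a* passed only through 6 libraries labelled *Npr1*+/-, where it is high, so that it had to differ.

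Every library is the muscle RNA of 1 male mouse on a high-fat diet (HFD), with 60% of calories from lipids for 12 weeks. The labels give 10 heterozygous mice (*Npr1*+/-) and 6 wild-type mice (*Npr1*+/+), the latter being littermate controls. The methods state mice of 12 weeks of age, the strain is B6.129-Npr1tm1Gar/J, and it had been crossed back to C57BL/6J over 10 or more generations. The muscle that was taken is not given in the labels, and the loss of 1 *Npr1* copy affects the whole body and not muscle alone. The labels spread the mice over cages 675, 676, 677 and 678, each of which held mice of both labels, and body weight was 43.6 ± 3.79 g (SD, n = 10) for *Npr1*+/- and 47.4 ± 4.69 g (SD, n = 6) for *Npr1*+/+.

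*Npr1* encodes GCA, the receptor through which atrial natriuretic peptide raises cyclic GMP. As background, an allele made in the cells of one mouse strain and bred onto another travels with a stretch of neighbouring chromosome from the first strain, which becomes shorter with each backcross. Genes of such a stretch are inherited together with the allele unless a recombination parts them. The strain origin of chromosome 3 in each mouse was not measured here, and its part in any difference below was not tested. The 10 genes share a chromosome and no pathway. They comprise a membrane-bound ligand (*Efna1*), a calcium-binding protein (*S100a11*), an actin capping subunit (*Capza1*), a kinase of innate immunity (*Alpk1*), a synaptic vesicle protein (*Sv2a*), 3 genes with less studied proteins (*Phtf1*, *St7l*, *Fam241a*) and 2 noncoding transcripts (*A930005H10Rik*, *C920021L13Rik*).

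In the deposited GRCm38 coordinates of chromosome 3, the genes follow each other in this order. First come *Efna1* (ENSMUSG00000027954) at 89271733 to 89281142 on the minus strand, *S100a11* (ENSMUSG00000027907) at 93520488 to 93526287 on the plus strand and *C920021L13Rik* (ENSMUSG00000080727) at 95871522 to 95889093 on the plus strand. They are followed by *Sv2a* (ENSMUSG00000038486) at 96181151 to 96195518 on the plus strand, *Phtf1* (ENSMUSG00000058388) at 103968110 to 104024598 on the plus strand and *Capza1* (ENSMUSG00000070372) at 104822779 to 104864505 on the minus strand. Last are *St7l* (ENSMUSG00000045576) at 104864005 to 104926860 on the plus strand, *A930005H10Rik* (ENSMUSG00000054426) at 115881581 to 115888130 on the minus strand, *Alpk1* (ENSMUSG00000028028) at 127670310 to 127780490 on the minus strand and *Fam241a* (ENSMUSG00000050549) at 127869058 to 127896324 on the minus strand. All values are sums over the exons of a gene.

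Some of these genes sit next to each other, which is best seen in the sequence. *Capza1* and *St7l* are read away from each other, and RefSeq places their first bases side by side. The 30 bases that span both starts are shown because the pair shares them, at chr3:104864491-104864520 on the plus strand of GRCm38.p6, with the first base of *Capza1* and then that of *St7l* in capitals.
Capza1-St7l: agagggcgccatgtCAgttccgcgcgggtg

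The 250 bases before the RefSeq starts of *Fam241a* (chr3:127896324-127896573, minus strand), *Alpk1* (chr3:127780528-127780777, minus strand) and *S100a11* (chr3:93520246-93520495, plus strand) are shown next, because without 1 library these were 3 of the 4 genes whose labels did not overlap, and because *Fam241a* and *Alpk1*, only 88.6 kb apart, differed in opposite directions. Each is given in the direction of its gene, and capitals mark GGGCGG or CCAAT on either strand.
Fam241a: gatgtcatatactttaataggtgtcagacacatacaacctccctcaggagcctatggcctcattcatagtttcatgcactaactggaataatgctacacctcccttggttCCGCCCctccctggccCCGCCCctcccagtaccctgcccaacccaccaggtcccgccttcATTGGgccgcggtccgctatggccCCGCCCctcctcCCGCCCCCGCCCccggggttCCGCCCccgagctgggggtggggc
Alpk1: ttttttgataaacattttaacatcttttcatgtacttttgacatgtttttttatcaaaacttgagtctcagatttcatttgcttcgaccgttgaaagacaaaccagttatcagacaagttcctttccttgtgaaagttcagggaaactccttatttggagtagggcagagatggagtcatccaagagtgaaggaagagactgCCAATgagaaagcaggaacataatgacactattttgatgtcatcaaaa
S100a11: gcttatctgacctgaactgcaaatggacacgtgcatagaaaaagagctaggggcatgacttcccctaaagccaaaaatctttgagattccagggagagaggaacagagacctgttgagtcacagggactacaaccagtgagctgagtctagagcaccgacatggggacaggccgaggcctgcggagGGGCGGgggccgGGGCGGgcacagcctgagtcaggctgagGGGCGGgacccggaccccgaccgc

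The *Fam241a* stretch holds GGGCGG 6 times and CCAAT once, that of *S100a11* holds GGGCGG 3 times, and that of *Alpk1* holds CCAAT once and neither GGGCGG nor TATAAA. Over 32817 windows of the same length in the RefSeq table, 32.7% hold GGGCGG, 33.8% hold CCAAT and 12.4% hold TATAAA. The *Alpk1* stretch has 2 CpG dinucleotides against 12 for *Fam241a* and 11 for *S100a11* (median of all windows 6). These matches describe letters only. The table held a window for 9 of the 10 genes.

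As for the libraries, between 15273472 and 59682677 fragments were counted per mouse, with medians of 20409174.5 for the libraries labelled *Npr1*+/- and 24015244.5 for those labelled *Npr1*+/+. *Npr1* itself, a check of the labels, had 9.83 to 22.2 CPM (reads scaled to library size with TMM factors) in the 10 libraries labelled *Npr1*+/- (median 12.0) and 10.4 to 13.4 CPM in the 6 labelled *Npr1*+/+ (median 12.4). It thus did not follow the labels, although its count covers all exons and the part removed by the allele is not given in the sources used here. Directions below are between libraries as labelled. The library labelled *Npr1*+/+ replicate 3 stood on the side of the other label at 5 of the 10 genes, more than any other, and results that rest on it are given with and without it. The gene *CT010467.1* took between 0.0484% and 9.10% of the counts in libraries labelled *Npr1*+/- and between 0.0646% and 1.47% in those labelled *Npr1*+/+, and its part in the differences was not tested.

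Across the table, 0 of 14331 genes passed an adjusted p-value under 0.05 between the labels in edgeR's quasi-likelihood test fitted alongside cage and body weight (0.00%), and 151 had an unadjusted p-value under 0.05 (1.05%). Counted in the same way, 3 of the 10 genes were among the 78 higher in *Npr1*+/- libraries (0.544% of all genes) and 6 among the 73 lower (0.509%). Since this contrast chose them, nothing is read from these counts. Their median absolute log2 fold change was 0.64 against 0.10 over all genes tested, as their choice fixes. The plot of levels in every library shows that the labels overlap for all but *Fam241a*.

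**Figure D1:**
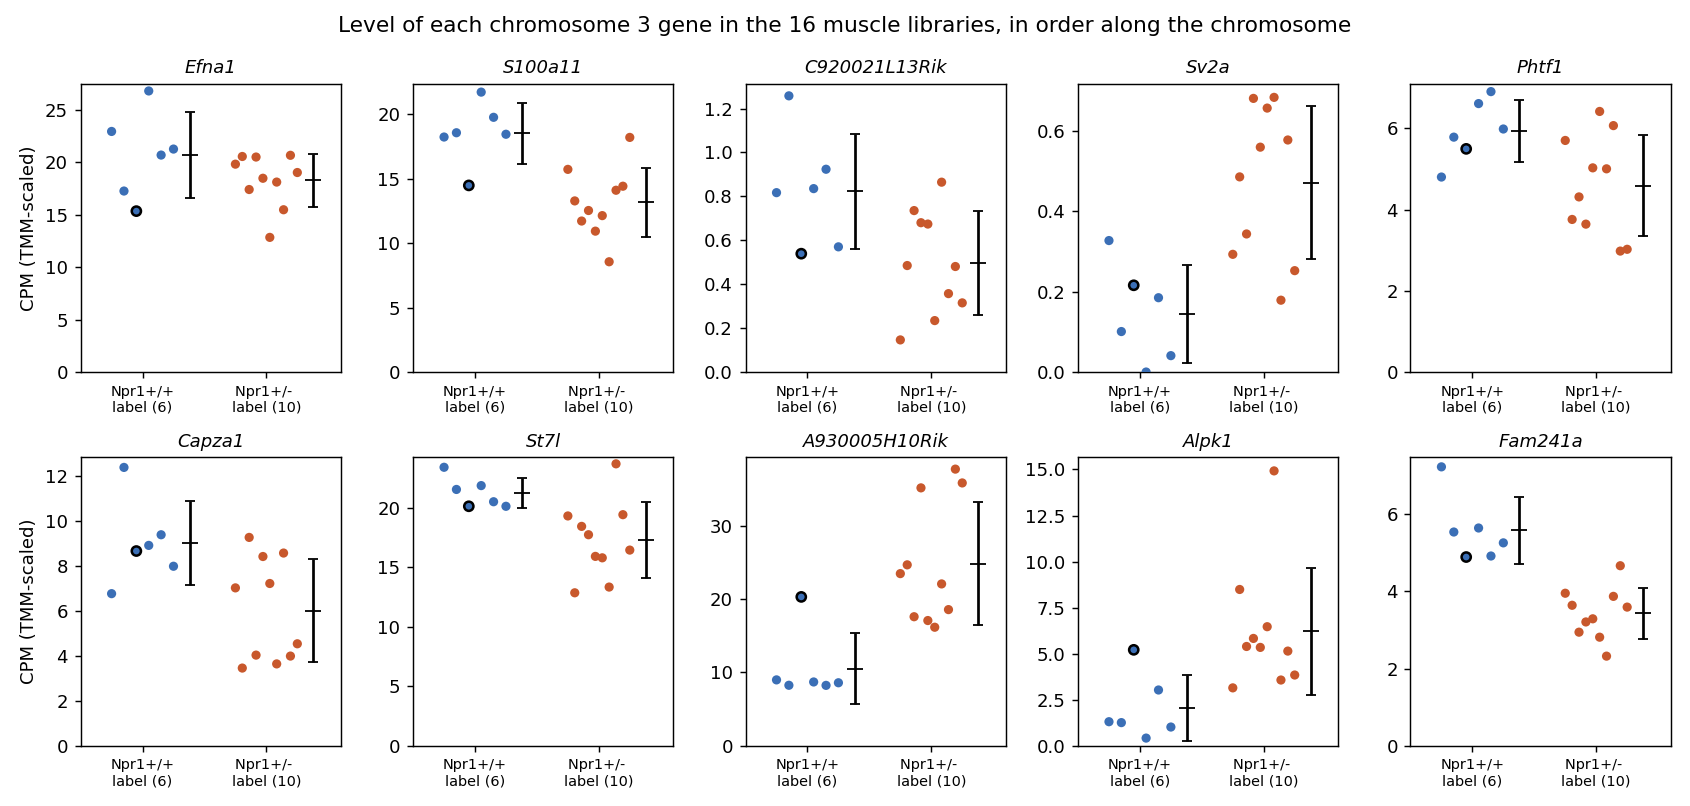
CPM (TMM-scaled, linear axes from 0) of the 10 genes in each of the 16 libraries, in order along chromosome 3; points are libraries in replicate order, the black bar is the mean ± SD of a label, and the black ring marks the library labelled *Npr1*+/+ replicate 3. That library lies at 20.3 CPM for *A930005H10Rik*, where the other 5 of its label lie between 8.24 and 8.98 CPM.

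*Fam241a*, a small protein-coding gene, was the gene that best kept to the labels. It had 2.32 to 4.66 CPM in the libraries labelled *Npr1*+/- (median 3.44) and 4.89 to 7.22 CPM in those labelled *Npr1*+/+ (median 5.39). Every library labelled *Npr1*+/- was thus below every one labelled *Npr1*+/+, and it was the only one of the 14331 genes tested for which the labels did not overlap (0.00698%). The gap was small, since replicate 9 labelled *Npr1*+/- reached 4.66 CPM and replicate 3 labelled *Npr1*+/+ was at 4.89 CPM. Means were 3.43 ± 0.664 CPM (SD, n = 10) and 5.57 ± 0.864 CPM (SD, n = 6). The fitted log2 fold change was -0.58 (standard error 0.18), and -0.43 without replicate 4 labelled *Npr1*+/+, the smallest in size with 1 mouse left out. Counts behind these values ran from 51 to 221 per library.

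*A930005H10Rik*, a noncoding transcript whose first bases overlap those of *Dph5*, fell into separate steps within both labels. It had 16.2 to 37.7 CPM in the libraries labelled *Npr1*+/- (median 22.8) and 8.24 to 20.3 CPM in those labelled *Npr1*+/+ (median 8.65). Within the *Npr1*+/+ label, 5 libraries lay close together, between 8.24 and 8.98 CPM, and replicate 3 stood at 20.3 CPM, inside the range of the other label. Within the *Npr1*+/- label, replicates 4, 10 and 9 had 35.2, 35.8 and 37.7 CPM, and the other 7 had 16.2 to 24.7 CPM. The log2 fold change was 1.52 (standard error 0.25), and 1.58 without replicate 3 labelled *Npr1*+/+. *Dph5*, which shares 294 bases with it on the opposite strand and whose product acts in diphthamide synthesis, had 4.29 ± 1.22 CPM (SD, n = 10) and 4.41 ± 0.425 CPM (SD, n = 6). The strand setting of the counting is not given in the sources used here, so reads of overlapping genes on opposite strands may not be told apart.

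*Alpk1* encodes an alpha-kinase that detects a bacterial sugar nucleotide and signals through TIFA to NF-kB. It had 3.14 to 14.9 CPM in the libraries labelled *Npr1*+/- (median 5.37) and 0.418 to 5.21 CPM in those labelled *Npr1*+/+ (median 1.28). Replicate 3 (5.21 CPM) and replicate 5 (3.03 CPM) were the highest of the *Npr1*+/+ label, and only the first of these reached into the range of the other label. Replicate 7 labelled *Npr1*+/- was the highest of all at 14.9 CPM. The log2 fold change was 1.42 (standard error 0.56). It was 0.72 without replicate 4 labelled *Npr1*+/+, whose *Alpk1* count of 6 was the lowest, 2.26 without replicate 5 and 1.61 without replicate 3 of that label. *Tifa*, the partner that lies 9.32 kb beyond *Alpk1*, had 2.37 ± 1.03 CPM (SD, n = 10) and 1.74 ± 0.211 CPM (SD, n = 6). Of 14 tested genes listed for the ALPK1-TIFA pathway other than *Alpk1*, 0 had an unadjusted p-value under 0.05 between the labels, against 1.05% of all genes tested. At that share, 0 calls in a list this short say little.

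*S100a11* encodes a calcium-binding protein that binds annexins, and it had the highest level per length of the 10. It had 8.55 to 18.2 CPM in the libraries labelled *Npr1*+/- (median 12.9) and 14.5 to 21.7 CPM in those labelled *Npr1*+/+ (median 18.5). Replicate 3 of the *Npr1*+/+ label was the lowest there at 14.5 CPM, and the next was at 18.23 CPM. Of the other label, 2 libraries exceeded that lowest one, replicate 1 at 15.7 CPM and replicate 10 at 18.20 CPM. Its log2 fold change was -0.54 (standard error 0.16), with -0.31 without replicate 4 labelled *Npr1*+/+. Its tested neighbour *S100a10*, 28.8 kb away, had a log2 fold change of 0.14 (standard error 0.24). Of 10 tested S100 and annexin genes other than *S100a11*, 0 had an unadjusted p-value under 0.05, against 1.05% of all genes tested. Their median log2 fold change was -0.05 against -0.01 over all genes. Their values ran from -0.51 (*S100a4*, standard error 0.27, also on chromosome 3) to 0.14 (*S100a10*).

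Without the library labelled *Npr1*+/+ replicate 3, the labels did not overlap for 4 of the 10 genes, *S100a11*, *A930005H10Rik*, *Alpk1* and *Fam241a*. Over all genes tested, 13 did not overlap then (0.0907%). This count was part of the choice of genes and is given as a description.

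*Capza1* and *St7l*, the head-to-head pair, were both lower in the libraries labelled *Npr1*+/- but were spread differently among them. *Capza1* encodes an alpha subunit of CapZ, which caps the barbed ends of actin filaments and anchors them at the Z-disc. It had 3.46 to 9.26 CPM in the libraries labelled *Npr1*+/- (median 5.78) and 6.76 to 12.4 CPM in those labelled *Npr1*+/+ (median 8.78). The 10 libraries labelled *Npr1*+/- left a gap between 4.53 and 7.02 CPM, with replicates 2, 7, 9, 4 and 10 below it and replicates 1, 6, 5, 8 and 3 above it. The 5 above lay within the range of the *Npr1*+/+ libraries, whereas the 5 below were lower than every *Npr1*+/+ library. Of the 5 below, 4 came from cage 678, where all 4 mice labelled *Npr1*+/- lay below the gap, and the mouse of that cage labelled *Npr1*+/+ had 8.91 CPM. The log2 fold change was -0.70 (standard error 0.20), and -0.41 without replicate 4 labelled *Npr1*+/+, the only mouse of that label in cage 678. *Capza2*, the paralog, had 468 ± 109 CPM (SD, n = 10) and 458 ± 55.8 CPM (SD, n = 6), and its log2 fold change was 0.04. Of 10 tested actin capping genes other than *Capza1*, 0 had an unadjusted p-value under 0.05, against 1.05% of all genes tested.

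*St7l* had 12.9 to 23.7 CPM in the libraries labelled *Npr1*+/- (median 17.1) and 20.1 to 23.4 CPM in those labelled *Npr1*+/+ (median 21.0). The *Npr1*+/+ libraries were tight, and 9 of the 10 libraries labelled *Npr1*+/- fell below all 6 of them. The exception was replicate 8, at 23.7 CPM the highest of all 16. The log2 fold change was -0.28 (standard error 0.16; -0.13 without replicate 4 labelled *Npr1*+/+), the smallest in size of the 10. *St7*, its paralog, had 13.1 ± 3.21 CPM (SD, n = 10) and 13.2 ± 1.47 CPM (SD, n = 6). In the deposited coordinates *Capza1* and *St7l* share 501 bases on opposite strands.

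*Phtf1*, which encodes a membrane protein, had 2.98 to 6.42 CPM in the libraries labelled *Npr1*+/- (median 4.66) and 4.80 to 6.91 CPM in those labelled *Npr1*+/+ (median 5.89). Replicates 9, 10 and 4 labelled *Npr1*+/- were the lowest at 2.98, 3.02 and 3.64 CPM, and these same 3 libraries were the highest for *A930005H10Rik*. Replicates 6, 8 and 1 were at 6.42, 6.07 and 5.70 CPM, amid the libraries labelled *Npr1*+/+. The fitted difference was a log2 fold change of -0.53 (standard error 0.21), and -0.42 without replicate 4 labelled *Npr1*+/+. *Magi3*, on the other strand, overlaps the end of *Phtf1* by 11340 bases and had 3.42 ± 1.31 CPM (SD, n = 10) and 2.86 ± 0.733 CPM (SD, n = 6). *Phtf2*, the paralog, had a log2 fold change of -0.03 (standard error 0.20).

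*Efna1*, an ephrin ligand and of the 10 genes the nearest to *Npr1* with a start 1.18 Mb away, overlapped widely between the labels. It had 12.8 to 20.7 CPM in the libraries labelled *Npr1*+/- (median 18.7) and 15.3 to 26.8 CPM in those labelled *Npr1*+/+ (median 21.0). Replicates 3 and 2 labelled *Npr1*+/+ lay below the median of the other label, at 15.3 and 17.3 CPM. In the fit it had a log2 fold change of -0.30 (standard error 0.14), or -0.18 with the label alone in the fit and -0.23 without replicate 4 labelled *Npr1*+/+. Of the 60 pairs made of 1 library of each label, the library labelled *Npr1*+/- was lower in 43. Without replicate 3 labelled *Npr1*+/+ this was so in 42 of 50 pairs. Ephrin-A1 is abundant in endothelium, and the summed CPM of 4 endothelial markers ranged from 118 to 463 (median 199) in the libraries labelled *Npr1*+/- and from 162 to 224 (median 177) in those labelled *Npr1*+/+, with no marker at 0. Their part in the *Efna1* values was not tested. In bulk muscle, fewer cells of a type cannot be told apart from less RNA per cell. Of 6 tested ephrin-A and Eph receptor genes other than *Efna1*, 0 had an unadjusted p-value under 0.05, against 1.05% of all genes tested.

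*Sv2a* and *C920021L13Rik* were hardly expressed, and their values rest on few counts. *Sv2a* encodes a glycoprotein of synaptic vesicles and had 3 counts or fewer in 4 libraries, 3 of them labelled *Npr1*+/+, with at most 34 counts in any library. It had 0.179 to 0.683 CPM in the libraries labelled *Npr1*+/- (median 0.522) and 0 to 0.327 CPM in those labelled *Npr1*+/+ (median 0.143). Replicate 4 labelled *Npr1*+/+ had no count, which at 3 counts of its total allows up to 0.196 CPM before TMM scaling, and replicates 8, 10 and 1 labelled *Npr1*+/- lay below replicate 1 labelled *Npr1*+/+. The fitted log2 fold change of 1.92 (standard error 0.58) depends on such low counts and ran from 1.41 without replicate 4 labelled *Npr1*+/+ to 2.60 without replicate 5 of that label. Schwann cell and nerve markers summed to 45.3 to 74.4 CPM (median 52.7) and 44.3 to 68.9 CPM (median 64.2) in the 2 labels, none was at 0, and their part was not tested. Of 3 tested synaptic vesicle genes other than *Sv2a*, 0 had an unadjusted p-value under 0.05, against 1.05% of all genes tested.

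*C920021L13Rik*, annotated as antisense, spans *Ciart*, a gene of the circadian clock, and part of *BC028528*, both on the other strand. It had 2 to 41 counts per library, or 0.146 to 0.865 CPM in the libraries labelled *Npr1*+/- (median 0.483) and 0.539 to 1.26 CPM in those labelled *Npr1*+/+ (median 0.826). Replicates 7, 3, 4 and 5 labelled *Npr1*+/- were amid the *Npr1*+/+ libraries, and replicates 1 and 6 were the lowest. Its log2 fold change was -1.05 (standard error 0.39), and it ran from -1.47 without replicate 4 to -0.75 without replicate 5 labelled *Npr1*+/+, and was -0.67 with the label alone in the fit. *Ciart* had 3.99 ± 2.25 CPM (SD, n = 10) and 2.91 ± 0.987 CPM (SD, n = 6), and *BC028528* had 1.79 ± 0.605 CPM (SD, n = 10) and 1.57 ± 0.388 CPM (SD, n = 6).

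Compared per length, as FPKM over all 16 libraries, *S100a11* stood first at 29.7 ± 7.16 FPKM (SD, n = 16) and above every other of the 10 in each library. *Efna1* followed at 10.5 ± 1.80 FPKM (SD, n = 16) and *A930005H10Rik* at 8.16 ± 4.21 FPKM (SD, n = 16), and *Efna1* was the higher of these in 12 of 16 libraries (7 of the 10 labelled *Npr1*+/-, where the means were 9.99 and 10.4 FPKM, and 5 of the 6 labelled *Npr1*+/+, where they were 11.3 and 4.41 FPKM). *Capza1*, *Fam241a* and *St7l* came next at 1.89, 1.87 and 1.69 FPKM, closer to each other than their SDs of 0.680, 0.570 and 0.292. *Phtf1* at 0.699 FPKM and *Alpk1* at 0.677 FPKM were close only when pooled, since *Alpk1* was the higher by mean in the *Npr1*+/- libraries (0.905 against 0.630 FPKM) and *Phtf1* in the *Npr1*+/+ libraries (0.813 against 0.297 FPKM). *C920021L13Rik* had 0.243 and *Sv2a* 0.0751 FPKM, the lowest.

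Read along the chromosome, no library kept a single side through all 10 genes except replicate 4 labelled *Npr1*+/+. For this, a library was placed against the midpoint between the 2 label medians on the log2 CPM scale. Replicate 3 labelled *Npr1*+/+ was on the side of the other label for *Efna1*, *S100a11* and *C920021L13Rik*, on its own side for *Sv2a*, *Phtf1*, *Capza1* and *St7l*, again on the other side for *A930005H10Rik* and *Alpk1*, and on its own for *Fam241a*. Replicates 1 and 8 labelled *Npr1*+/- were on the other side at 4 genes each, which for replicate 8 are the consecutive *Sv2a*, *Phtf1*, *Capza1* and *St7l*. At *A930005H10Rik* and *Alpk1*, no library labelled *Npr1*+/- was on the other side, and at *Fam241a* replicate 9 was. At most 2 of the 16 libraries were on the other side for 3 of the 10 genes, *A930005H10Rik*, *Alpk1* and *Fam241a*, against 0.384% of all genes tested, a share given as background for chosen genes.

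**Figure D2:**
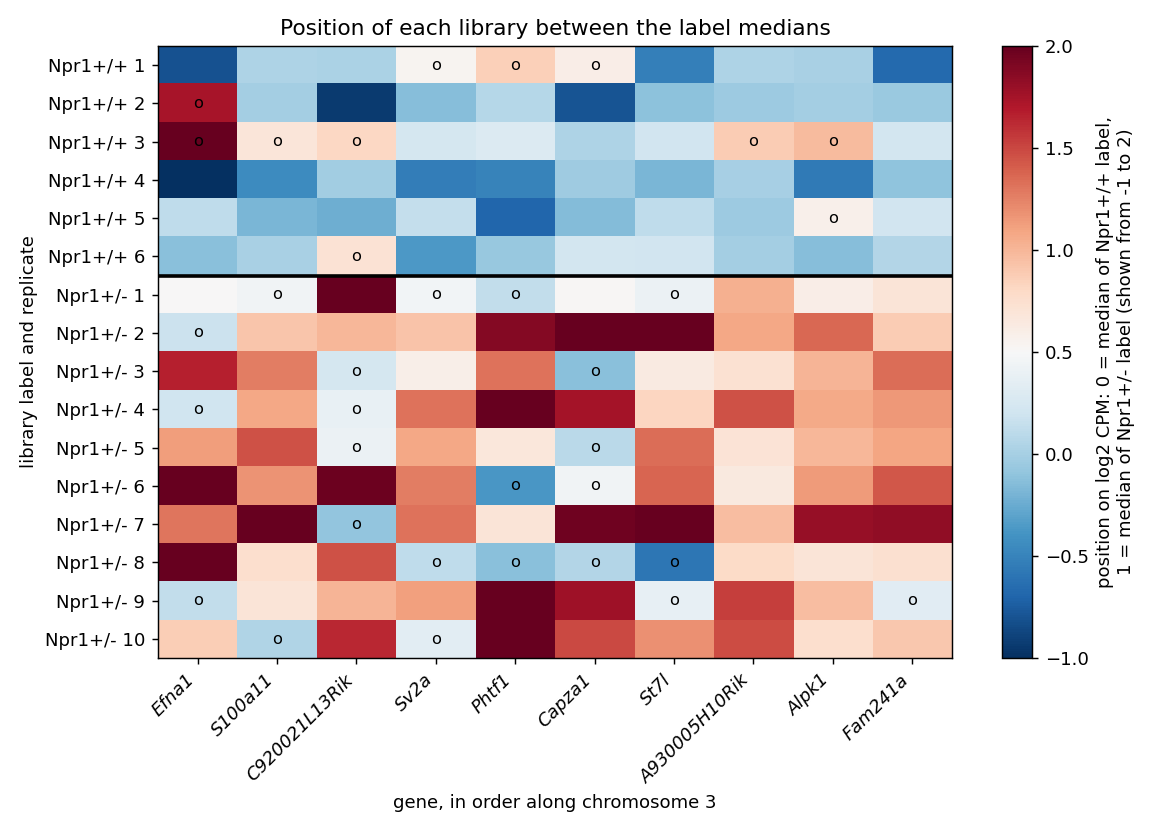
Position of each library (rows) at each gene (columns, in order along chromosome 3) on the log2 CPM scale, where 0 is the median of the libraries labelled *Npr1*+/+ and 1 that of those labelled *Npr1*+/-; circles mark libraries on the side of the other label, and colours stop at -1 and 2. Replicate 3 labelled *Npr1*+/+ has 5 circles; colours at *Efna1* are steep because its label medians, 21.0 and 18.7 CPM, are close.

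The position of the 10 genes relative to *Npr1* ranged from 1.18 Mb on one side (*Efna1*) to 37.4 Mb on the other (*Fam241a*). Of the 361 other tested genes between 86 and 130 Mb, 11 had an unadjusted p-value under 0.05 between the labels (3.05%), of which 4 were higher and 7 lower in the libraries labelled *Npr1*+/-. Outside this stretch, 0 of the 334 tested genes of chromosome 3 and 131 of 13626 on the other chromosomes (0.961%) had one. The borders of the stretch were set with these data in view, so the shares are descriptions. The median log2 fold change of the 361 genes was -0.01, and that of all genes tested was -0.01.

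**Figure D3:**
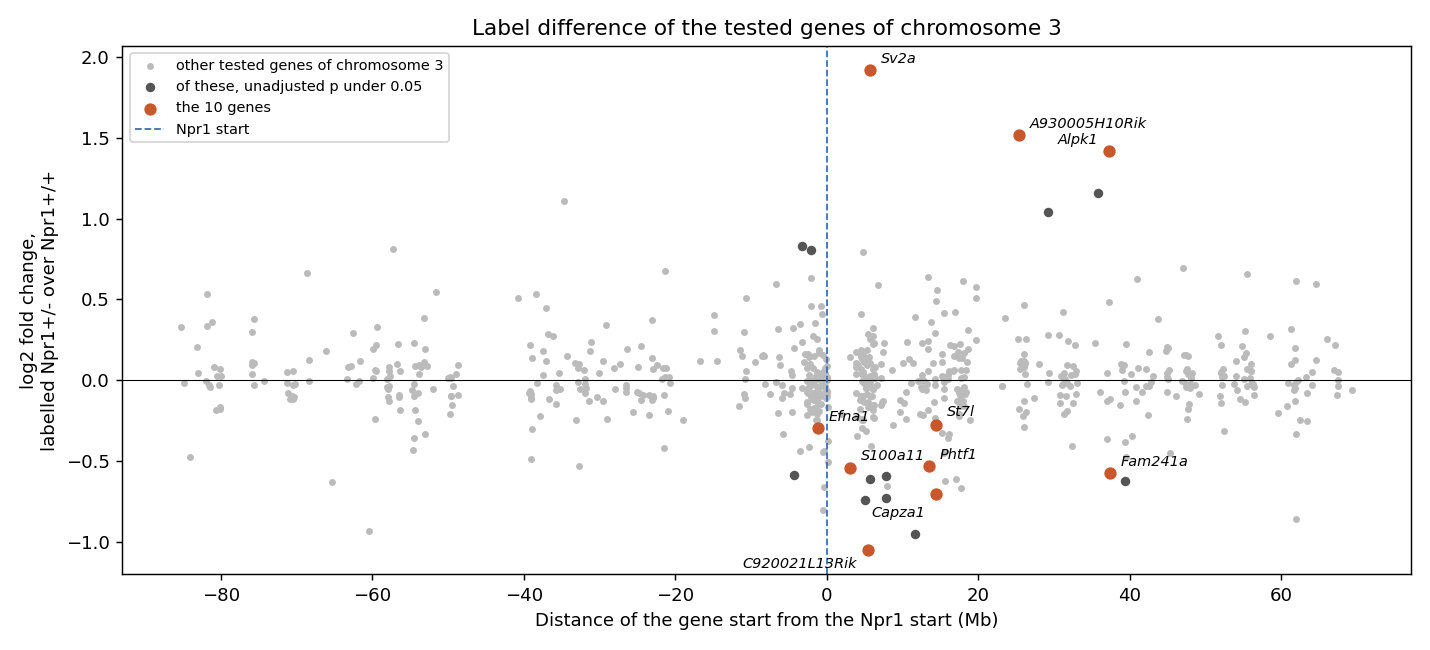
Log2 fold change (libraries labelled *Npr1*+/- over *Npr1*+/+, edgeR fit with cage and body weight) of the tested genes of chromosome 3 against the distance of their start from that of *Npr1*, in Mb. The 10 genes run from -1.05 (*C920021L13Rik*) to 1.92 (*Sv2a*), and the dark points are the 11 other genes with an unadjusted p-value under 0.05.

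The 11 other genes serve varied functions. Among the 7 lower ones, *Casq2*, the calsequestrin of slow and cardiac muscle, had mean levels of 60.7 ± 23.1 (SD, n = 10) against 123 ± 34.5 CPM (SD, n = 6) in *Npr1*+/+ mice, or -0.95 as log2 fold change (standard error 0.25). *Rps3a1*, a ribosomal protein gene with near-identical copies elsewhere, had 113 ± 26.6 and 163 ± 23.7 CPM, a log2 fold change of -0.58 that is uncertain because counting may split its reads. *Ctss*, the protease cathepsin S of antigen-presenting cells, had a log2 fold change of -0.74, and *Hist2h2be*, a histone H2B gene, one of -0.61. *Phgdh*, the first enzyme of serine synthesis, had one of -0.73, and *Pla2g12a*, a secreted phospholipase, one of -0.62. Of the 60 pairs made of 1 library of each label, the *Npr1*+/- library was lower in 38 for *Ctss*, 42 for *Pla2g12a*, 55 for *Phgdh* and 58 for *Hist2h2be*. The label medians of *Ctss* were close, at 5.95 CPM for *Npr1*+/- and 6.15 CPM for *Npr1*+/+. The 4 higher ones were *Fcrls* with 0.83 (higher in 41 of the 60 pairs), *Sema4a* with 0.80 (51), *Gm43300* with 1.04 (48) and *Arsj* with 1.16 (51). *Gm43300* and *Arsj* were below 1 CPM on average in both labels.

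The nearest tested neighbours of the 10 genes, other than *Capza1* and *St7l* beside each other, were also compared. None of the 18 had an unadjusted p-value under 0.05 between the labels, against 1.05% of all genes tested. Their log2 fold changes ran from -0.37 (*Zgrf1*, beside *Alpk1*) to 0.49 (*Wnt2b*, beside *St7l*, and *Tifa*). *Mrps21*, on the minus strand with its start 0.003 kb from the start of *C920021L13Rik*, had one of -0.17. *Sf3b4* and *Bola1*, on either side of *Sv2a*, had -0.09 and -0.01, and *Slc50a1* and *Adam15*, around *Efna1*, had -0.06 and -0.11. *Rsbn1*, before *Phtf1*, had 0.06, *Mov10*, before *Capza1*, had 0.29, and *S1pr1*, the sphingosine phosphate receptor before *A930005H10Rik*, had 0.26. *Ap1ar*, before *Fam241a*, had -0.12, and *Gm9774*, before *S100a11*, had -0.21.

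Cage and body weight were not used to pick the genes and were tested. They were fitted together with the label, which did pick them, and mean body weight differed between the labels. Their tests are therefore not independent of that choice. Between cages, 0 of the 10 genes passed an adjusted p-value under 0.05 in edgeR, and 4 of 14331 genes did (0.0279%). *Capza1* alone, 1 of the 10, had an unadjusted p-value under 0.05 for cage, against 7.36% of all genes (adjusted p = 0.584, edgeR). With body weight, 0 of the 10 genes and 0 of 14331 (0.00%) passed. At the unadjusted level, *A930005H10Rik* and *Capza1* passed, which is 2 of 10 against 17.1% of all genes. *A930005H10Rik* was higher by 0.10 log2 units per g (standard error 0.03, adjusted p = 0.245 in edgeR) and *Capza1* differed by -0.06 log2 units per g (standard error 0.03, adjusted p = 0.290 in edgeR). Without replicate 3 labelled *Npr1*+/+, the heaviest mouse at 54 g, the *A930005H10Rik* value was 0.07 log2 units per g (adjusted p = 0.248 in edgeR). The *Capza1* call, at an unadjusted p of 0.0488 in edgeR, was lost without cage in the fit, where the value was 0.01 log2 units per g (unadjusted p = 0.828 in edgeR). It was also lost under most other settings, though the value stayed negative in the edgeR fits with cage. There it was -0.05 with RLE size factors (unadjusted p = 0.0703 in edgeR), and ran from -0.08 without *Npr1*+/- replicate 7 to -0.03 without *Npr1*+/+ replicate 4. Without replicate 3 labelled *Npr1*+/-, 3158 genes passed for body weight, among them *A930005H10Rik* with 0.12 log2 units per g (adjusted p = 0.0253 in edgeR), and 869 genes passed for cage, none of the 10 among them.

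The label differences were next taken within each cage, where 3 to 5 mice remain and no test was made. For 9 of the 10 genes the difference of mean log2 CPM had the same direction in all 4 cages, against 11.8% of all genes tested, and since the genes were chosen on the label difference nothing is read from this count. *Fam241a* was lower in the libraries labelled *Npr1*+/- by -0.33 to -0.82 on the log2 scale, *S100a11* by -0.30 to -0.83 and *A930005H10Rik* higher by 0.36 to 1.69 (0.92 to 1.69 without replicate 3 labelled *Npr1*+/+, which is in cage 675). The exception was *Capza1*, with -1.14 in cage 678, -0.32 and -0.50 in cages 675 and 676, and 0.18 in cage 677, which held 1 mouse labelled *Npr1*+/-. *Alpk1* ranged from 0.18 in cage 676 to 3.19 in cage 678, and *C920021L13Rik* from -0.89 to -0.02.

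**Figure D4:**
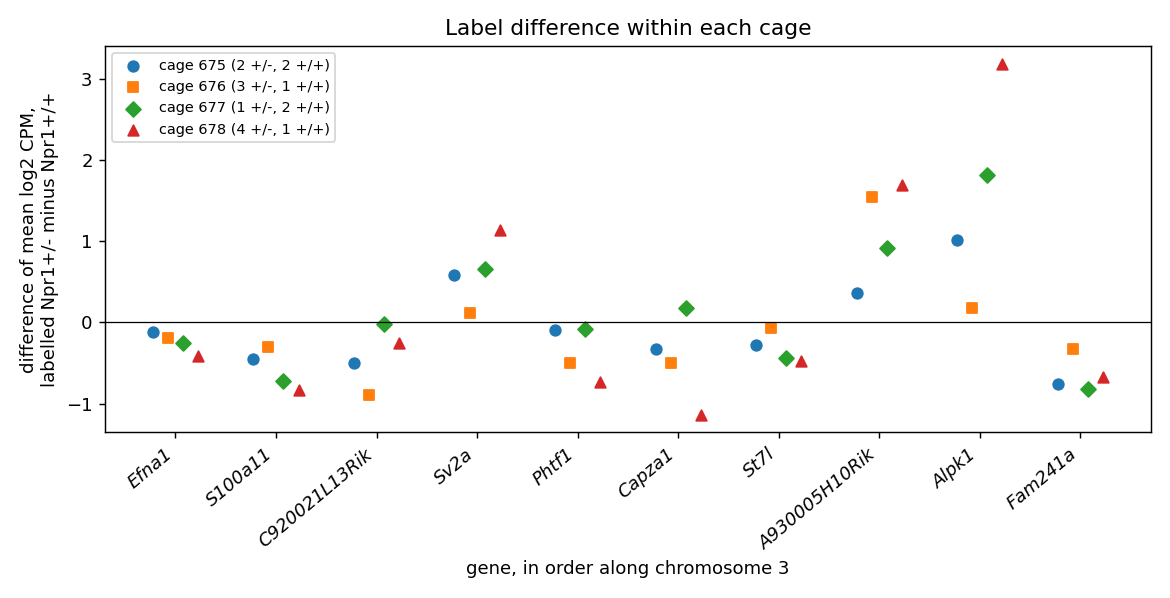
Difference of mean log2 CPM between libraries labelled *Npr1*+/- and *Npr1*+/+ within each of the 4 cages (symbols) for the 10 genes in order along chromosome 3; numbers of mice are in the key. All 4 symbols lie on one side of 0 for every gene but *Capza1*, which is at 0.18 in cage 677.

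Markers of muscle and of other cells it may hold were summed per library. The 5 fibre markers, among them *Acta1* and *Myh4*, summed to 66054 to 121654 CPM in the libraries labelled *Npr1*+/- (median 102837) and 68967 to 111877 CPM in those labelled *Npr1*+/+ (median 80880). The ranges of all 9 marker lists overlapped between labels. Erythroid markers had 2 of 3 genes higher at an unadjusted p-value under 0.05, against 0.544% of all genes tested (medians of their summed CPM 52.2 and 41.4). Of the B cell markers 1 of 2 tested was lower, against 0.509% of all genes. The summed CPM of the whole B cell list of 4 nevertheless had medians of 118 for *Npr1*+/- and 94.0 for *Npr1*+/+. The part of these in the levels of the 10 genes was not tested.

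By pattern over the 16 libraries (Pearson correlation of log2 CPM, a description in which libraries share label and depth), the gene most like each of the 10 lay on another chromosome, with the exception of *Capza1*, whose closest was *Casq2* (r = 0.81). *A930005H10Rik* was most like *Rps3a3* on chromosome 13 (r = 0.90), a near-identical copy of *Rps3a1* whose reads counting may split. The log2 fold change of *Rps3a3* between the labels was 6.24. *St7l* was most like *Dbndd2* (0.89), *S100a11* most like *Pfn1*, the actin-binding profilin (0.89), *Fam241a* most like *Katnal2* (0.89) and *Efna1* most like *Tmem203* (0.83). *Alpk1* was most like *Zfp36l2* (0.82), *C920021L13Rik* most like *Ift88* (0.81), *Phtf1* most like *Avil* (0.78) and *Sv2a* most like *Ss18l1* (0.76). These chromosomes hold for Pearson's correlation. By Spearman's, the closest genes to *S100a11* and *Capza1* were *Rtca* and *Vav3*, both of chromosome 3, and the closest gene stayed the same for 3 of the 10, *Phtf1*, *Alpk1* and *Fam241a*. With the label means removed, it stayed the same for *Efna1* and *C920021L13Rik* and for none of the other 8, and r of *A930005H10Rik* with *Rps3a3* was 0.70.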

How the data were processed

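Skeletal muscle RNA of 16 mice was sequenced as 52-base read pairs. Reads were aligned by the authors with STAR (build GRCm38), who then counted fragments per GENCODE M24 gene with featureCounts, requiring both ends to align and deposited raw counts without normalization, together with a gene length in bases (another unit, used here only for FPKM). The submitters' notes name STAR 2.7.2b and featureCounts 1.6.4. The methods name a TruSeq stranded kit and the labels a Tecan kit. Coordinates are those of the deposited table, and 55144 of 55471 identifiers matched a symbol in GENCODE M21. Promoter sequences are RefSeq's (GRCm38.p6).

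Genes were filtered with filterByExpr, scaled with TMM and fitted with edgeR 4.0.16 (glmQLFit, robust = TRUE, legacy = TRUE) in R 4.3.3 on label, cage and body weight, with Benjamini-Hochberg adjustment over all 14331 genes and a threshold of 0.05. Log2 CPM values add 0.5 CPM. The steps were tested on simulated data. The 10 genes, the gene lists and the borders of the stretch were chosen with earlier results of these data known. Genes named are the 10, *Npr1*, nearest and overlapping tested genes, those of the stretch with an unadjusted p-value under 0.05, the gene most like each, and of each functional list the 2 with the smallest p-values and any paralogs; some are given only as counts or are not reported here. Total counts of 15273472 to 59682677 per library limit precision by counting error only. No 2 libraries agreed within sampling noise (chi-square per degree of freedom of at least 11.9 over 120 pairs). Alternatives tried were other covariates, a replicate block, other size factors, DESeq2 1.42.0, limma-voom (limma 3.58.1), other filters and leaving out each mouse. The within-cage values without *Npr1*+/+ replicate 3 were added after seeing the data. Each library is 1 mouse, and coordinates are 1-based. No sample was left out.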

Additional observations from a re-analysis of the deposited data

Results flagged for a closer look

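Of 22 groups examined (the 10 genes and *Npr1* in each label), 2 had a library far from the others of its label by Dixon's test at the 95% level, where chance gives about 1 in 20. The library labelled *Npr1*+/+ replicate 3 had 20.3 CPM of *A930005H10Rik*, against 8.24 to 8.98 CPM in the other 5 of its label. The library labelled *Npr1*+/+ replicate 1 had 7.22 CPM of *Fam241a*, against 4.89 to 5.64 CPM in the other 5, and so lay farther from the other label than they did.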

How the results depend on the processing

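None of the 10 genes changed direction under any setting in which it was tested. The log2 fold change moved by less than the pooled SD of single mice in 90 of 97 refits with another setting and 150 of 154 with 1 mouse left out. That SD is a wide limit, 0.74 log2 units for *Alpk1* and 0.21 for *St7l*. Without replicate 4 labelled *Npr1*+/+, *Alpk1* at 0.72 and *St7l* at -0.13 still count as within it, so these shares say little about precision. Of the refits with 1 mouse left out, that without replicate 4 labelled *Npr1*+/+ gave the log2 fold change smallest in size for every gene but *C920021L13Rik* and *A930005H10Rik*. With at least 10 counts required in every library, 1 of the 10 was higher, since *Sv2a*, *Alpk1* and *C920021L13Rik* were not tested. Of the placements of libraries by the midpoint of the label medians, 34 were on the side of the other label and 16 after correction for cage and body weight by the fit that holds the label, which for genes chosen by label is a description. Counts over all genes moved more. Between labels, 0 genes passed the adjusted threshold with edgeR, 8 with no filter on low counts and 6 with DESeq2, and the 151 at the unadjusted one became 544 with label alone, 581 with label and cage, 829 with no filter and 97 with 10 counts in every library. The replicate block in place of cage gave 2 adjusted and 1294 unadjusted calls. Replicate numbers name different animals (mean correlation of same-numbered deviations 0.106 over 6 pairs), so this is not a pairing. For cage, the 4 adjusted calls became 0 with library size only, 23 with no filter, 1 with 10 counts in every library and 86 with DESeq2, and the 1055 unadjusted calls became 610 without body weight and 1699 with no filter. Of the 10 genes, 2 had an unadjusted p-value under 0.05 for cage without body weight, with RLE size factors or with no filter, and 3 with DESeq2 (610, 1033, 1699 and 1521 of all genes in these fits). For body weight, 1177 genes had one without cage, and of the 10 genes 1 instead of 2 did so without cage, with RLE, with library size only and under both filters (*Capza1* was lost in each), and with DESeq2. Over all genes, 2449 had one in the main fit, 2464 with RLE, 2457 with library size only and 2819 with DESeq2. With no filter it was 3208 of 30287 genes, and with 10 counts in every library 2248 of 12218. With 1 mouse left out, 2 to 3 of the 10 were higher (*Sv2a* was not always tested), label calls ran from 0 to 3 adjusted (3 without *Npr1*+/+ replicate 3, 2 without *Npr1*+/- replicate 6) and from 127 to 285 unadjusted (285 without *Npr1*+/- replicate 7, 232 without *Npr1*+/+ replicate 5). Cage calls ran from 0 to 869 adjusted and 454 to 4106 unadjusted, and body weight calls from 0 to 3158 and 981 to 5376, each highest without *Npr1*+/- replicate 3. Cage was lowest without *Npr1*+/- replicates 1 and 4 (adjusted) or 6 (unadjusted), and body weight without *Npr1*+/- replicate 7, with 1507 without *Npr1*+/+ replicate 1. Of the 10 genes, 1 to 4 had an unadjusted p-value under 0.05 for cage, and 0 to 1 an adjusted and 1 to 2 an unadjusted one for body weight. The cause of these shifts was not tested. Counts of 0 to 34 (*Sv2a*) and 2 to 41 (*C920021L13Rik*) limit these 2 genes most.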
